A study of Rattus norvegicus with 2 samples.

Results

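Translation initiation factors (eIFs) and elongation factors (eEFs) are the proteins that place ribosomes on messenger RNA and drive them along it. Their genes were compared here between high and control phosphate in H9c2, a cardiomyoblast line grown from the heart of a rat embryo. The high phosphate culture received 2.5 mM phosphate and the control culture 0.9 mM phosphate, both for 12 h without serum, and each level had 1 RNA sequencing library. The genes were the protein-coding rat genes whose symbol begins with Eif or Eef and whose mean over both libraries was at least 1 FPKM (mapped fragments relative to transcript length and to the size of the library). They numbered 41 of the 4366 genes that passed this filter, called measured below, and comprised 33 Eif and 8 Eef genes. With 1 library per phosphate level no difference given here has a replicate check, and there is no test and no p-value. Nor is the number of reads behind a value known, since only FPKM are given.

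Initiation begins when the eIF2 complex, bound to GTP, carries the initiator tRNA to the small ribosomal subunit, where eIF1, eIF1A and eIF3 are already seated. The cap-binding protein eIF4E, the scaffold eIF4G and the helicase eIF4A then bring in the messenger RNA. Cells throttle these steps at 2 well-known points: phosphorylation of eIF2alpha blocks its recycling by eIF2B, and unphosphorylated 4E-binding proteins hold eIF4E away from eIF4G until mTORC1 phosphorylates them. During elongation eEF1A delivers aminoacyl-tRNA and eEF2 moves the ribosome to the next codon, and in heart and skeletal muscle eEF2 kinase slows that step when energy is short. Most of this control acts on protein phosphorylation, which RNA levels do not record.

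The RNA of most factors was close to level between the libraries. On the scale log2((high phosphate FPKM + 1)/(control FPKM + 1)), where the added 1 shrinks the differences of low genes, 34 of the 41 genes lay within 0.3 of 0. Counting from a 2-fold difference on this scale, 1 gene, Eif4e3, was higher in high phosphate, where 1.76% of all measured genes were, and no gene was lower, where 0.87% of all measured genes were. Counting from 1.5-fold, Eif4e3 and Eif4ebp1 were higher (7.21% of all measured genes) and Eif1a was lower (3.37% of all measured genes). These counts are too small to set the family apart from that background. The median log2 ratio of the 41 genes was -0.07, against 0.00 for all measured genes, with 17 genes higher, against 50.5% of all measured genes, and 24 lower, against 49.4% of them. Compared with measured genes of like mean FPKM (5 equal bins), 2 of the 41, Eif4e3 and Eif1a, lay outside the central 95% of log2 ratios of their bin, as did 5.04% of all measured genes.

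The signs of small differences depended on how the libraries were scaled. Listed FPKM summed to 346857 in the high phosphate library and 307622 in the control library, and bringing both to the same sum moved the median log2 ratio of all measured genes by -0.15. Under that rescaling 9 of the 41 genes were higher, where 32.2% of all measured genes were, and 32 lower, where 67.8% of all measured genes were. All counts after this rescaling given below stand against those shares. Counts as deposited stand against 50.5% of all measured genes higher and 49.4% lower. Across the 9 other settings, 32 genes kept their sign wherever they were included, 9 of them higher and 23 lower. Only the rescalings could turn a sign, because other added values and the filters cannot. Rescaling to the same median ratio and to the same upper quartile shifted log2 values by only -0.004 and 0.019. For genes further from 0 than that, the check rests on the sum rescalings. Both of these moved values down, shifting the median of all measured genes by -0.15 and -0.08. They could therefore turn only genes that were higher as deposited. No rescaling could turn the 23 that stayed lower, so their count is no check on direction. The 9 that stayed higher were Eif4e3, Eif4ebp1, Eif5a, Eif4a2, Eif3f, Eef1a1, Eef1g, Eef2 and Eef2k. The 9 whose sign turned lay close to 0 as deposited: Eif1b, Eif2s2, Eif3i, Eif4a3, Eif4g2, Eif4ebp2, Eif4enif1, Eefsec and Eef1akmt1.

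**Figure D1:**
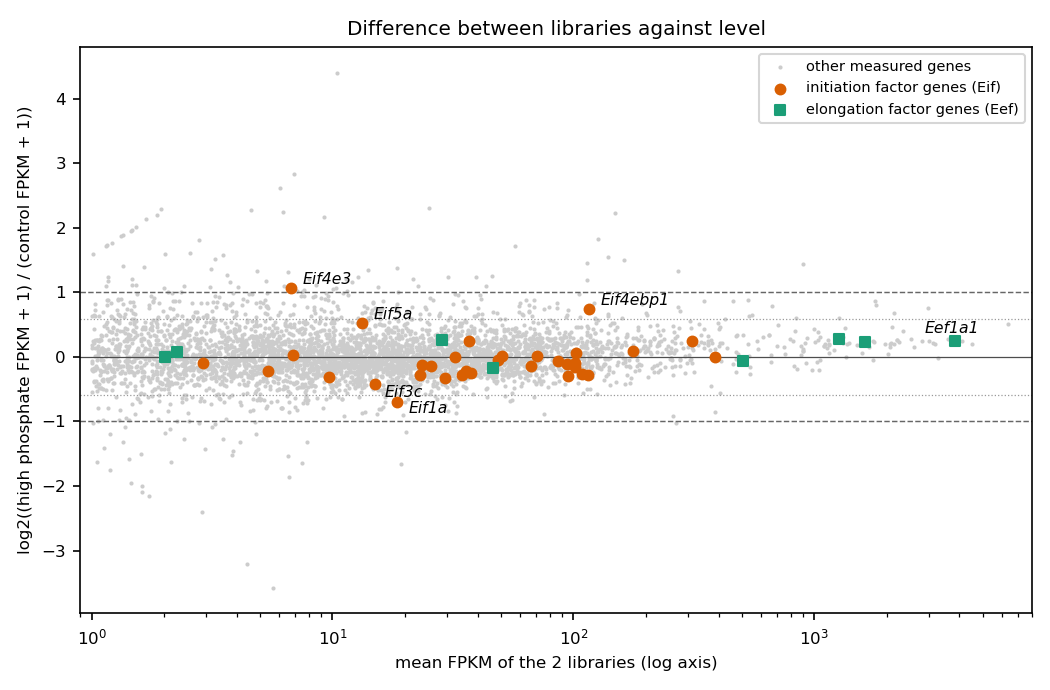
Log2 ratio of high phosphate over control against the mean FPKM of both libraries (log axis) for 4366 measured genes, with the Eif genes as orange circles and the Eef genes as green squares. Dashed lines mark 2-fold and dotted lines 1.5-fold; of the factors only Eif4e3 lies past the dashed lines, and Eif4ebp1 and Eif1a lie past the dotted ones.

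The largest difference was in Eif4e3 (Entrez 297481), a member of the cap-binding eIF4E family. It was listed at 9.44 FPKM in high phosphate and 3.99 FPKM in control, a 2.37-fold ratio of FPKM and a log2 ratio of 1.07 on the scale with the added 1. After rescaling to the same sum its log2 ratio was 0.91, below 2-fold. Its relative Eif4e2, which encodes the translational repressor 4EHP, was listed at 4.9 FPKM in high phosphate and 5.89 FPKM in control. The order of these 2 genes therefore differed between the libraries: Eif4e3 stood at 1.93 times the FPKM of Eif4e2 in high phosphate and at 0.677 times in control. Both are low-abundance genes, and in their bin of mean FPKM the central 95% of log2 ratios spanned -0.77 to 0.97. Eif4e itself, the main cap-binding protein, was listed at 0.89 FPKM in high phosphate and 0.79 FPKM in control, under the filter.

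Eif4ebp1 (Entrez 116636), which encodes the 4E-binding protein that mTORC1 phosphorylates, was listed at 144.8 FPKM in high phosphate and 86.4 FPKM in control. That is a 1.68-fold ratio, with a log2 ratio of 0.74 that stood at percentile 95.5 of all measured genes. With both libraries at the same sum it was just under 1.5-fold, at 0.57. The second binding protein gene, Eif4ebp2, was listed at 32.3 FPKM in both libraries. Thus Eif4ebp1 exceeded Eif4ebp2 by 4.49 times in high phosphate and by 2.67 times in control. Eif4enif1, whose product 4E-T carries eIF4E into the nucleus and represses bound messenger RNA, was listed at 6.95 FPKM in high phosphate and 6.76 FPKM in control.

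Among the other genes of the eIF4 group no difference reached 1.5-fold. Eif4a2, an RNA helicase of the cap-binding complex, was listed at 40.1 FPKM in high phosphate and 33.6 FPKM in control. Eif4a3, the helicase of the exon junction complex, had 70.7 FPKM in high phosphate and 70.0 FPKM in control. The most abundant gene of the group, Eif4g2, encodes the eIF4G-like protein DAP5, which lacks the eIF4E-binding site, and was listed at 389 FPKM in high phosphate and 388 FPKM in control. Of these 5 eIF4 genes 4 were higher and 1 was lower as deposited, against 2 higher and 3 lower after rescaling to the same sum.

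The lowest log2 ratio belonged to Eif1a (Entrez 317163), 1 of the genes for eIF1A, which helps the small subunit scan for the start codon. It was listed at 13.85 FPKM in high phosphate and 23.2 FPKM in control, a log2 ratio of -0.71 at percentile 1.97 of all measured genes. The X-linked gene for nearly the same protein, Eif1ax, was more abundant and nearer level, with 63.2 FPKM in high phosphate and 70.0 FPKM in control. Eif1a accordingly stood at 0.219 times the FPKM of Eif1ax in high phosphate and at 0.332 times in control. The copies are so alike that reads can match both, and the sources used here do not say to which copy such reads were counted. Eif1ad, which encodes a protein with an eIF1A domain, was listed at 25.9 FPKM in high phosphate and 32.9 FPKM in control, and the eIF1 gene Eif1b at 50.9 FPKM in high phosphate and 50.45 FPKM in control.

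Of the 9 measured genes whose symbol begins with Eif2, 8 were lower and 1, Eif2s2, was higher as deposited. All 9 were lower after rescaling to the same sum. Of all measured genes 49.4% and 67.8% were lower under these scalings. Eif2s1, which encodes the alpha subunit that stress kinases phosphorylate, was listed at 99.2 FPKM in high phosphate and 119 FPKM in control (log2 ratio -0.26). The beta subunit gene Eif2s2 had 105 FPKM in high phosphate and 101 FPKM in control, and the gamma subunit gene Eif2s3 47.8 FPKM in high phosphate and 49.3 FPKM in control. Eif2a encodes an initiator tRNA carrier outside the eIF2 complex and is counted here by name only. It was listed at 8.52 FPKM in high phosphate and 10.9 FPKM in control. Eif2ak1, the heme-regulated kinase of eIF2alpha and the 1 kinase of that family measured, had 30.95 FPKM in high phosphate and 38.0 FPKM in control (log2 ratio -0.29). All 4 measured genes of eIF2B, the exchange factor that reloads eIF2 with GTP, were lower as deposited, by small amounts. None of the rescalings used could have turned their signs. Eif2b1 differed most, with 33.0 FPKM in high phosphate and 38.55 FPKM in control, then the catalytic subunit gene Eif2b5 with 24.3 FPKM in high phosphate and 26.8 FPKM in control. Eif2b4 had 22.5 FPKM in high phosphate and 24.6 FPKM in control, and Eif2b2 84.0 FPKM in high phosphate and 88.0 FPKM in control.

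The subunits of eIF3, the largest initiation factor and the platform on which the small subunit assembles its partners, did not share 1 direction. Of 9 measured genes 2 were higher and 7 lower as deposited, and 1 was higher and 8 lower after rescaling to the same sum. The scaffold subunit genes were among the lower ones. Eif3a was listed at 103 FPKM in high phosphate and 126 FPKM in control, and Eif3b at 85.5 FPKM in high phosphate and 105 FPKM in control. Eif3c had the lowest log2 ratio of the complex (-0.42), with 12.7 FPKM in high phosphate and 17.2 FPKM in control. Eif3f, by contrast, was listed at 337 FPKM in high phosphate and 285 FPKM in control, higher as deposited and under every rescaling. It was the most abundant subunit gene, at 3.26 times the FPKM of Eif3a in high phosphate and 2.27 times in control. Eif3j, whose product is only loosely bound to the complex, had 34.4 FPKM in high phosphate and 41.0 FPKM in control. Between these lay Eif3g, Eif3m, Eif3d and Eif3i, with log2 ratios of -0.16, -0.09, -0.10 and 0.09.

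FPKM spread widely within the complex, although its subunits are assembled together. The most abundant subunit gene, Eif3f, stood 122 times above the least abundant measured one, Eif3d, in high phosphate and 93.8 times above it in control. Eif3d was listed at 2.77 FPKM in high phosphate and 3.04 FPKM in control. Eif3k was listed at 0 in high phosphate and 0.97 FPKM in control, and Eef1d, the delta subunit gene of eEF1, at 0 in high phosphate and 0.25 FPKM in control. Growing cells use these genes, and a value at or near 0 in files of this kind can be a failed estimate, so no fold is given for them. Eif4e, Eif3k, Eef1d and Eif5a2, the last with 0.3 FPKM in high phosphate and 0.34 FPKM in control, were the 4 of 45 listed Eif and Eef genes under the filter. The reference table names 10 pseudogenes after Eif4e and 36 transcripts for Eef1d. Their part in these low values was not tested.

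Of the remaining initiation factors, Eif5a was higher and Eif5b and Eif6 were lower. Eif5a encodes eIF5A, the carrier of the modified amino acid hypusine, which helps ribosomes through stretches where peptide bonds form slowly. Its FPKM were 15.8 in high phosphate and 10.6 in control, a 1.49-fold ratio with a log2 ratio of 0.53 at percentile 91.4. The enzymes that make hypusine were not higher: Dhps was listed at 36.25 FPKM in high phosphate and 39.35 FPKM in control, and Dohh at 36.5 FPKM in high phosphate and 51.1 FPKM in control. Eif5b, the GTPase that joins the ribosomal subunits, had 20.8 FPKM in high phosphate and 25.5 FPKM in control. Eif6, which keeps free large subunits from joining too early, had 90.2 FPKM in high phosphate and 97.55 FPKM in control.

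**Figure D2:**
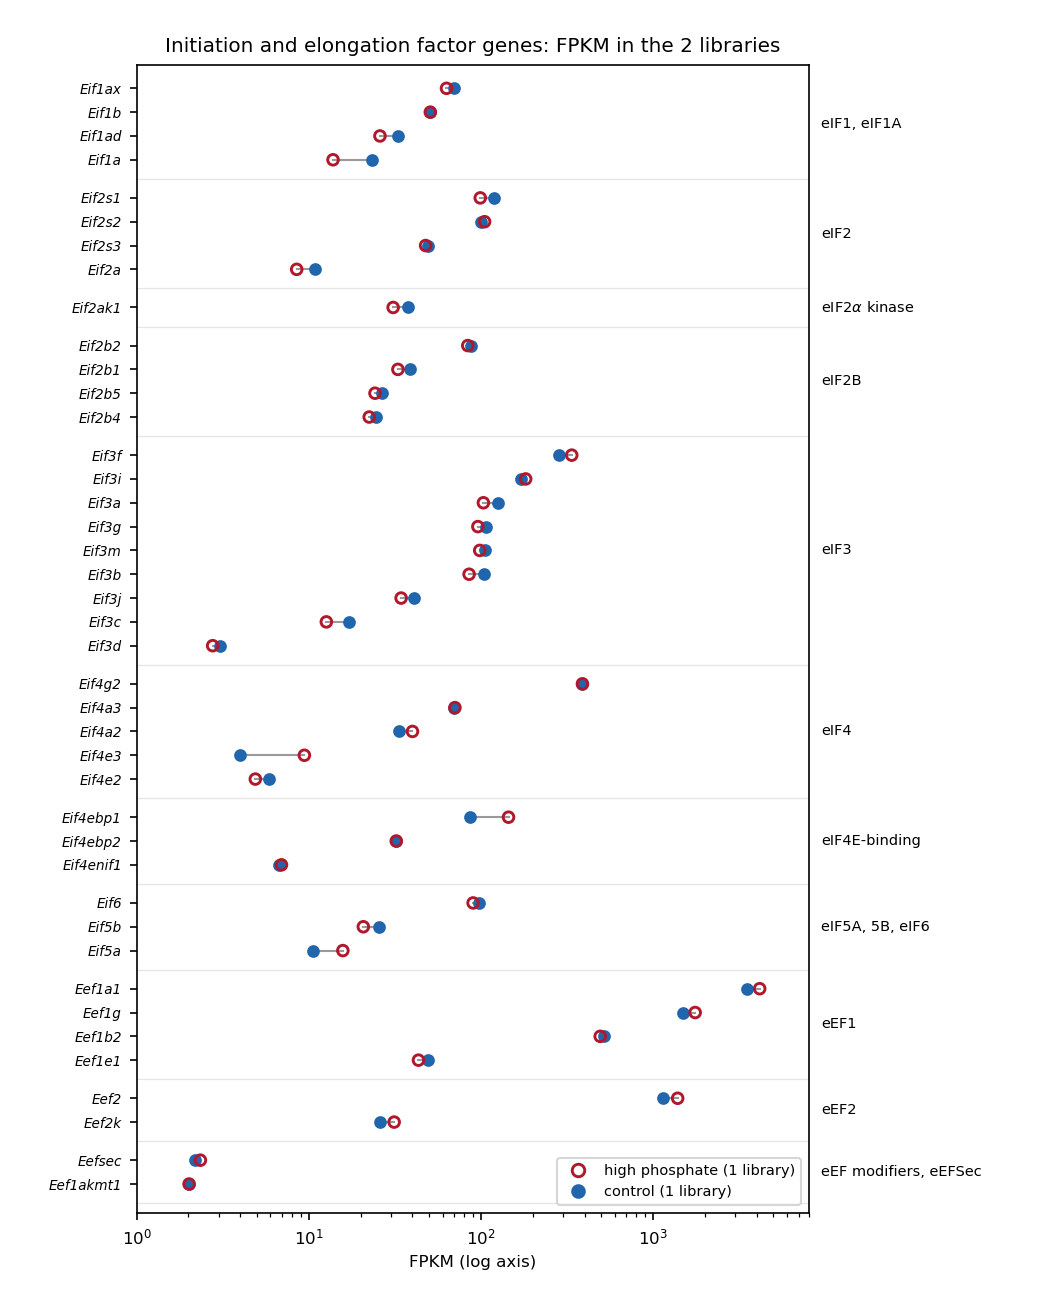
FPKM (log axis) of the 41 measured factor genes in the high phosphate library (open red circles) and the control library (filled blue circles), 1 library each, grouped by complex. The pairs nearly coincide for most genes; the widest gaps are those of Eif4e3, Eif4ebp1, Eif1a and Eif5a.

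The most abundant genes of the family were Eef1a1, Eef1g, Eef2 and Eef1b2. Of these all but Eef1b2 were higher in high phosphate as deposited and under every rescaling. Eef1a1 ranked 4 among all measured genes by mean FPKM, with 4164 FPKM in high phosphate and 3496 FPKM in control. Eef1g, a subunit of the eEF1 exchange complex, was listed at 1757 FPKM in high phosphate and 1496 FPKM in control, and Eef2 at 1390 FPKM in high phosphate and 1145 FPKM in control. Their log2 ratios were 0.25, 0.23 and 0.28 as deposited, and 0.08, 0.06 and 0.11 after rescaling to the same sum. The ratio of Eef1a1 to Eef2 was nearly the same in the libraries, 2.99 in high phosphate and 3.05 in control. Such a shift was common at this level: of the 63 measured genes averaging 1000 FPKM or more, 90.5% were higher, and their median log2 ratio was 0.21. These 63 include the 3 genes themselves and many cytosolic ribosomal protein genes. Of 47 measured genes of that class, whose median level was 1390 FPKM, 42 were higher. Whether the shift goes with level or with that class was not tested.

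The other genes of elongation were mixed. Eef1b2, the exchange factor that recharges eEF1A with GTP, was listed at 493 FPKM in high phosphate and 516 FPKM in control, so that Eef1a1 exceeded it by 8.44 times in high phosphate and 6.78 times in control. Eef1e1, whose product belongs to the complex of aminoacyl-tRNA synthetases, had 43.4 FPKM in high phosphate and 49.05 FPKM in control. Eef2k, the kinase that inactivates eEF2, was listed at 31.4 FPKM in high phosphate and 25.9 FPKM in control, a log2 ratio of 0.27 next to the 0.28 of its substrate's gene. Eefsec, the factor that inserts selenocysteine, and Eef1akmt1, a lysine methyltransferase of eEF1A, were low in both libraries and within 0.1 of 0. Among the 8 Eef genes 6 were higher and 2 lower as deposited, and 4 were higher and 4 lower after rescaling to the same sum. Among the 33 Eif genes 11 were higher and 22 lower as deposited, and 5 were higher and 28 lower after that rescaling.

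The median log2 ratio was 0.15 for the Eef genes and -0.11 for the Eif genes as deposited, and 0.01 and -0.28 after rescaling to the same sum. Beside these stand 47 measured cytosolic ribosomal protein genes with a median of 0.20 (0.03 rescaled) and 55 mitochondrial ribosomal protein genes with a median of -0.14 (-0.31 rescaled). The groups also differed in level: the median of the mean FPKM was 275 for the Eef genes and 37.7 for the Eif genes, 1390 for cytosolic and 36.3 for mitochondrial ribosomal protein genes. Within the factor family, 8 genes were higher and 5 lower at a mean of at least 100 FPKM, 5 higher and 16 lower between 10 and 100 FPKM, and 4 higher and 3 lower below that. Among all measured genes 70.2% were higher at a mean of at least 100 FPKM and 47.3% between 10 and 100 FPKM. The part of level in the contrast between Eef and Eif genes was not tested.

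**Figure D3:**
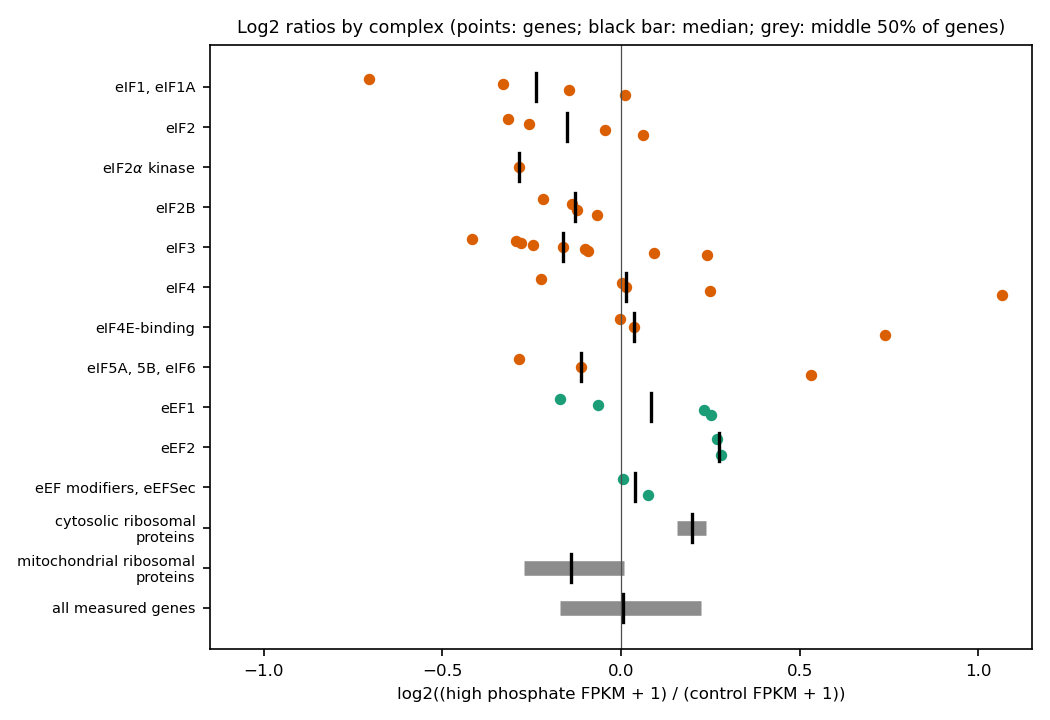
Log2 ratio of high phosphate over control for each factor gene (points), by complex, with the median of each group as a black bar and the middle 50% of ribosomal protein genes and of all measured genes as grey bars. The eIF1, eIF2, eIF2B and eIF3 groups have medians below 0, and the eEF1 and eEF2 groups medians of 0.08 and 0.27.

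Many ribosomal protein and elongation factor messages begin with a terminal oligopyrimidine tract, a C followed by a run of C and T bases, through which mTORC1 sets their translation. The sequence around annotated gene starts (RefSeq, build GRCr8) was searched on the gene's strand for a C followed by at least 4 C or T bases that begins within 5 bases of the start. Of 41 genes 39 had a start sequence in the table. The 2 without one were Eif4e3 and Eif4ebp1, the members with the highest log2 ratios, so the motif counts and medians leave them out. Of the 39 genes 10 (25.6%) held a run of this kind, against 18.0% of measured genes and 16.4% of all 19005 protein-coding genes with a start sequence. Of 37 measured cytosolic ribosomal protein genes with a sequence, 62.2% held it. Where the run had to begin at the annotated start itself, 1 of the 39 members (2.56%), Eif2a, held it, against 2.83% of measured genes, 2.44% of all and 43.2% of the ribosomal protein genes. Shown are 4 members that held it and differ in the direction of their values, as 10 bases before and 20 from the annotated start, with the run in capitals.
Eef1a1: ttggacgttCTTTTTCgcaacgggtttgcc
Eif3f: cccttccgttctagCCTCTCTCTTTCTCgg
Eef1b2: ggccggtcccggCCCTTTTTCTCCCTCagc
Eif2a: gcatgggtttCTCTTTCCgggacaagatgg
Eef1a1 and Eif3f were higher as deposited and under every rescaling. Eef1b2 and Eif2a were lower as deposited, and no rescaling used could have turned their signs. The 10 genes with the run had a median log2 ratio of -0.08 and the 29 without it -0.10, with 3 of the 10 and 12 of the 29 higher. Counted among the 29 were Eef1g and Eef2, with log2 ratios of 0.23 and 0.28. Annotated starts can be off by some bases, so a gene counted as without the run may still have one. A run in this window is a match of letters only.

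The E-box CACGTG, the letters bound by MYC and related factors, was also counted over the 300 bases from 250 before to 50 after each start. It reads the same on both strands and contains the shorter ACGTG. It was found in 7 of the 39 members (17.9%), against 11.0% of measured genes and 7.27% of all protein-coding genes with a sequence. The 7 were Eef2, Eef2k, Eif3f, Eif5a, Eif1b, Eif3a and Eif3b, of which 5 were higher and 2 lower as deposited, with a median log2 ratio of 0.24, against -0.11 for the 32 without it. Among all 398 measured genes with this E-box the median was -0.07, on the other side of 0. Of these 7, Eif1b was lower after rescaling to the same sum. The site is shown in capitals for the 4 that stayed higher and the 2 that were lower as deposited, with up to 12 bases on each side.
Eef2: cacccgcgccgtCACGTGacgtgcccaacc
Eef2k: acccggggcagcCACGTGagcccgggcgtg
Eif3f: caagatatgggtCACGTGgtacaaatttag
Eif5a: aaggggcggggtCACGTGtgtgcgtcattg
Eif3a: ccgcgagggaatCACGTGgctccttccttt
Eif3b: actcgctgcacgCACGTGgctccgcgctag
The first base of the site lay at -76 in Eef2, -77 in Eef2k, -59 in Eif3f and -57 in Eif3b relative to the annotated start, at -206 in Eif5a and at 30 in Eif3a, with the start base counted as 0. ACGTG, the core of the element bound by hypoxia-inducible factors, was found on either strand in 17 of the 39 (43.6%), against 28.9% of measured genes and 20.4% of all. Genes with ACGTG had a median log2 ratio of -0.10 and those without it -0.07.

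Genes that govern these factors from outside the family were also read. In the mTORC1, MNK and S6 kinase list 10 genes were measured, 5 higher and 5 lower as deposited, with 2 higher and 8 lower once the sums were made equal, and with a median log2 ratio of 0.00. Ddit4, an inhibitor of mTORC1, was the 1 gene of the list past 2-fold, with 27.1 FPKM in high phosphate and 9.83 FPKM in control. Of all measured genes 1.76% were at least 2-fold higher and 0.87% at least 2-fold lower. Mtor was listed at 3.28 FPKM in high phosphate and 3.22 FPKM in control, and Rps6kb2, an S6 kinase gene at the low end of the list, at 22.6 FPKM in high phosphate and 28.2 FPKM in control.

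On the eIF2alpha side 4 genes were measured, 2 higher and 2 lower as deposited and 4 lower after rescaling to the same sum. Ppp1r15a, which directs a phosphatase to eIF2alpha, was listed at 18.9 FPKM in high phosphate and 26.2 FPKM in control (log2 ratio -0.45). Atf4, the transcription factor whose translation rises when eIF2alpha is phosphorylated, was listed at 294 FPKM in high phosphate and 290 FPKM in control. Ddit3, a target of Atf4, was listed under 1 FPKM in both libraries.

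Of 12 measured genes for release, recycling and other cytosolic factors, 4 were higher and 8 lower as deposited, and 1 was higher and 11 lower after rescaling to the same sum, with a median log2 ratio of -0.12 as deposited. At the low end were Abce1, the ATPase that splits ribosomes after termination, with 7.47 FPKM in high phosphate and 14.95 FPKM in control, and Nmd3, the export adaptor of the large subunit, with 12.2 FPKM in high phosphate and 28.3 FPKM in control. On the scale with the added 1, these 2 of the 12 were at least 1.5-fold lower, as were 3.37% of all measured genes. Nmd3 alone was at least 2-fold lower, as were 0.87% of all measured genes. At the high end Mcts1, which works in recycling and reinitiation, was listed at 5.85 FPKM in high phosphate and 3.8 FPKM in control. Pabpc1, the poly(A)-binding protein that joins eIF4G at the message's other end, was the most abundant of the list, with 668 FPKM in high phosphate and 652 FPKM in control.

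**Figure D4:**
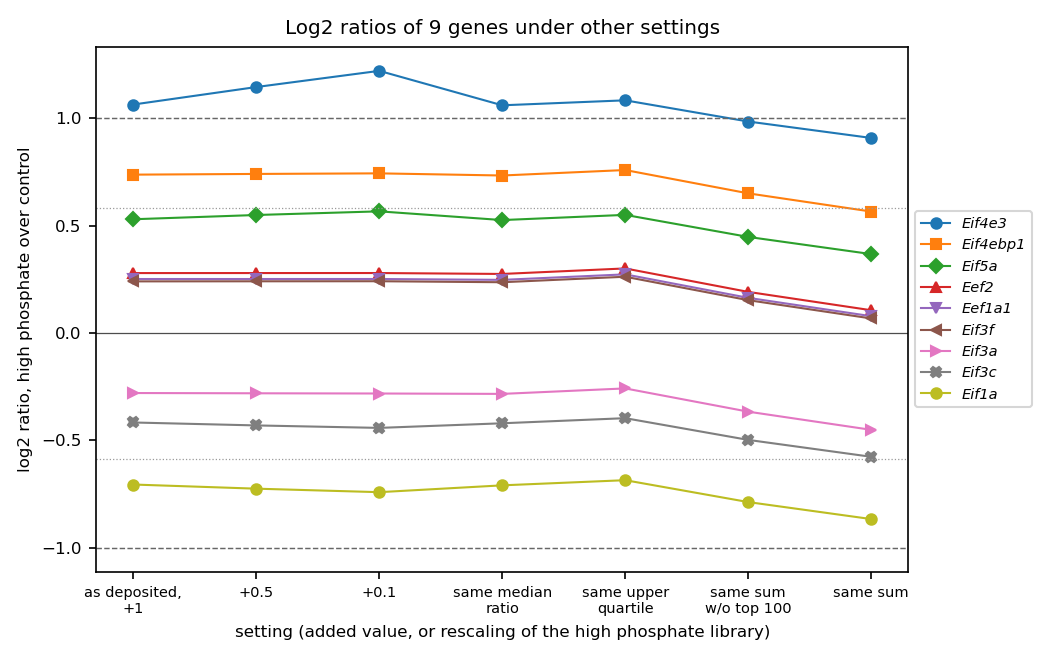
Log2 ratio of high phosphate over control for 9 factor genes as deposited with an added 1, with other added values, and with the high phosphate library rescaled in 4 ways. The 9 were picked from the genes that kept their sign, and none of those whose sign turned is plotted. Eif4e3 drops below 2-fold (dashed) under both sum rescalings and Eif4ebp1 just below 1.5-fold (dotted) under the same sum.

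The cell label could be checked only in part. Of 19 markers of cardiomyocytes and myoblasts 8 were listed and 4 measured: Des, Casq2, Myod1 and Acta1. Des, the muscle intermediate filament gene, was listed at 153 FPKM in high phosphate and 129 FPKM in control, and the calcium-storage protein gene Casq2 at 75.5 FPKM in high phosphate and 47.6 FPKM in control. Myod1, the myogenic transcription factor, went the other way, with 1.59 FPKM in high phosphate and 6.11 FPKM in control, and Acta1 had 1.64 FPKM in high phosphate and 1.57 FPKM in control. The adult cardiac genes Myh7 and Ryr2 were listed at 0 in both libraries. Summed FPKM of listed smooth muscle markers were 3839 in high phosphate and 2520 in control, and those of fibroblast markers 4427 in high phosphate and 4021 in control. Most of the fibroblast sum was S100a4, with 3249 FPKM in high phosphate and 3291 FPKM in control; the other 5 measured fibroblast markers were all higher as deposited, by log2 ratios of 0.45 to 0.79, and Pdgfra was listed at 0 in both libraries. Endothelial markers summed to 0.36 in high phosphate and 0.08 in control, and leukocyte markers to 1.38 in high phosphate and 1.06 in control, with Ptprc at 0 in both libraries. In bulk RNA a change in the cells present and a change in RNA per cell cannot be told apart. The part of the muscle and fibroblast markers in the values above was not tested.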

How the data were processed

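RNA of 2 cultures was sequenced, 1 library each. The authors deposited FPKM values, per the file headers, to 2 decimals. Tools named in the submitters' processing notes are TopHat2 2.1.1, Cufflinks 2.2.1, bcl2fastq and Cuffdiff, with the build Rnor_6.0. The sources used here give no role for each tool, no annotation or strand setting, and no rule for reads with several matches. Each file held 8039 entries, of which 236 had no usable Entrez identifier and were left out; 7746 of the other 7803 matched a symbol in RefSeq's GRCr8 gene table, used for names only. That table holds 76 protein-coding Eif and Eef genes; 45 were listed, and the other 31, among them Eif4a1, Eif4g1, Eif5 and Eef1a2, were not analysed here. It also holds 124 pseudogenes named after the family (20 after Eef1a1 and 16 after Eef1g), which can share reads with their parents.

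Log2 ratios of FPKM + 1 were computed for genes averaging 1 FPKM or more, with calls at 2-fold and 1.5-fold. Depth is unknown, so no counting interval is given. Tabulated alternatives were other pseudocounts (0.1 and 0.5), 4 rescalings and 3 filters. The members, the gene lists and these settings were chosen with earlier results of these data known, and the 0.3 band, the gene pairs, the 5 bins of mean FPKM and the search within 5 bases of the start were chosen after values were seen. Named were all members and up to 2 genes at each end of the other lists, plus, after their values were seen, Dhps, Dohh, Mtor, Atf4, Ddit3 and Pabpc1. The calculation was tested on simulated libraries with 200 genes changed and the same noise for all genes. That checks the arithmetic only, not the calls in these data, whose spread differs with level. Python 3.11.15, numpy 2.4.6, pandas 2.3.3 and matplotlib 3.10.9 were used.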

Additional observations from a re-analysis of the deposited data

How the results depend on the processing

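The count of members at least 2-fold higher was 1, and it was 0 after rescaling to the same sum, to the same sum without the 100 most abundant genes, and from a mean of 10 FPKM, a filter that Eif4e3 does not pass. The count at least 1.5-fold higher was 2, and 1 after rescaling to the same sum and from a mean of 10 FPKM. The count at least 1.5-fold lower was 1, and 2 without the filter on low values, where Eif3k enters. The median log2 ratio was -0.07, and -0.24 after rescaling to the same sum, where that of all measured genes was -0.15. No member at least 2-fold lower appeared in any of the 9 settings. No paired analysis was possible because each phosphate level had 1 library. The sources used here do not say whether the authors scaled the libraries to each other, and the 9 members whose sign turned with the scaling all lay within 0.1 log2 units of 0 as deposited.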

Other observations

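Of 15 measured genes for cytosolic aminoacyl-tRNA synthetases and their scaffold proteins, which charge tRNA with amino acids, 3 were higher and 12 lower as deposited, and 1 was higher and 14 lower after rescaling to the same sum, with a median log2 ratio of -0.20 as deposited. Of all measured genes 49.4% were lower as deposited and 67.8% after that rescaling. On the scale with the added 1 none of the 15 reached 1.5-fold. As a plain ratio of FPKM the low gene Sars1 passed 1.5-fold. Aimp1, a scaffold of the synthetase complex, was listed at 59.7 FPKM in high phosphate and 79.9 FPKM in control, and Sars1, for serine, at 1.42 FPKM in high phosphate and 2.36 FPKM in control. At the other end Kars1, for lysine, was listed at 13.4 FPKM in high phosphate and 9.65 FPKM in control.

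Of 4 measured mitochondrial translation factors 3 were lower and 1 higher in high phosphate, with or without rescaling to the same sum. Gfm1, the mitochondrial counterpart of eEF2, was listed at 12.5 FPKM in high phosphate and 16.4 FPKM in control, and Tufm, the counterpart of eEF1A, at 68.4 FPKM in high phosphate and 76.2 FPKM in control. Their cytosolic counterparts Eef2 and Eef1a1 had the opposite sign. As deposited, log2 ratios were 0.28 and 0.25, against -0.36 for Gfm1 and -0.15 for Tufm. After rescaling to the same sum they were 0.11 and 0.08, against -0.52 and -0.32. The pairs also differed in level. Eef2 and Eef1a1 averaged over 1000 FPKM, where 90.5% of measured genes, many of them for cytosolic ribosomal proteins, were higher as deposited. Gfm1 and Tufm averaged between 10 and 100 FPKM, where 47.3% were. The part of level in this contrast was not tested. Mtrf1, a mitochondrial release factor, was listed at 1.68 FPKM in high phosphate and 1.22 FPKM in control.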
